A study of Mus musculus with 24 samples.

Results

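The cytosolic ribosomal protein (RP) genes were followed through a panel of mouse embryonic stem cell (mESC) lines, each lacking one accessory subunit of the imitation switch (ISWI) chromatin remodelers. They were chosen by symbol, as Rpl or Rps followed by a number with an optional final a or x, the acidic stalk genes Rplp0, Rplp1 and Rplp2, and Rpsa. Pseudogenes, RP S6 kinase genes and genes named as RP-like were left out. The rule found 76 genes of the 24594 in the count table, 30 for the small (40S) subunit and 46 for the large (60S) subunit, spread over 19 chromosomes. RNA-seq, labelled as polyA RNA, gave 24 libraries from mESCs of 129S6/SvEvTac background, with no treatment and grown in serum with leukemia inhibitory factor on gelatin. Of these, 11 were wild type (WT) and 13 came from CRISPR–Cas9 deletion lines, with 1 clone per genotype, so clone and genotype cannot be told apart. Experiments A to E each held their own WT libraries. Rsf1∆ and Wstf∆ (Baz1b) were in batch A, Tip5∆ (Baz2a) in batch B, Bptf∆ in batch C, Cecr2∆ in batch D and Acf1∆ (Baz1a) in batch E. Each group had 2 libraries, except 3 for WT and Cecr2∆ in batch D.

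Each ribosome carries a single copy of most RPs, so their mRNAs are usually kept at similar levels, and unassembled RPs are degraded quickly. RP mRNAs start with a run of pyrimidines, the 5′ terminal oligopyrimidine (TOP) motif, through which mTOR signaling controls their translation. When assembly fails, free RPL5 and RPL11 bind MDM2 and raise p53. RP genes also have very many processed pseudogene copies in the mouse genome.

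Total counts ranged from 13417755 to 36721585 per library. The targeted mRNA fell in Rsf1∆ (Rsf1, log2 fold change −2.26), Wstf∆ (Baz1b, −2.40), Bptf∆ (Bptf, −1.97) and Acf1∆ (Baz1a, −1.72). In Tip5∆, Baz2a was at −0.26 with an adjusted p of 0.053, and in the libraries labelled Cecr2∆ the Cecr2 mRNA was higher, at 0.37. Deletions that stop the protein need not lower the mRNA, so these libraries are called by their labels. The 4 libraries of batch C stood apart. RNAs that lack a poly(A) tail, 7 in the list, summed to 4552 to 4707 CPM (counts scaled to library size) in WT and 5641 to 6425 CPM in Bptf∆, against 6.76 to 22.2 CPM in all other libraries. The label of polyA RNA was therefore not borne out in batch C, and the part of this in the comparisons with batch C and in Bptf∆, which has no libraries elsewhere, was not tested. Without batch C, the RP genes called higher and lower were 34 and 7 in Acf1∆ (beside 15.6% and 14.7% of all genes), 15 and 1 in Wstf∆ (17.7% and 16.03%), 6 and 0 in Rsf1∆ (9.77% and 11.2%), 1 and 1 in Tip5∆ (3.02% and 5.38%) and 0 and 2 in Cecr2∆ (8.07% and 8.82%). Embryonic stem cell markers were high in all libraries, with summed levels of 2527 to 4117 CPM, while 7 fibroblast markers summed to 2.54 to 32.5 CPM. Of the 6 stem cell markers, 6 were higher in Rsf1∆ (median 0.34) and in Wstf∆ (0.63), 5 in Bptf∆ (0.65) and 4 in Cecr2∆ (0.25), while 2 were higher and 2 lower in Acf1∆. Over all genes 7.45%, 16.4%, 21.4%, 9.52% and 15.1% were higher in these lines, in that order, and from 6.23% to 20.2% were lower in the 6 lines. Of the 4 fibroblast markers that could be tested, 3 fell in each line except Cecr2∆. The fourth, Thy1, was higher in Wstf∆ (1.03 ± 0.10, from a mean of 7.44 to 15.2 CPM). The 7 primitive endoderm markers all fell in the Rsf1∆, Wstf∆, Tip5∆, Bptf∆ and Cecr2∆ libraries. In Acf1∆, 3 of them were higher and 1 lower. Whether fewer cells of a type or less RNA per cell lay behind such a difference cannot be told apart in bulk RNA, and the part of these marker changes in the RP results was not tested.

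The sequence around the annotated transcript start was searched for pyrimidine runs like that of the TOP motif. Such a run need not begin at the start itself, so it was not taken as a TOP motif. RefSeq (GRCm38.p6) gave promoters, from 250 bases before to 50 after the start, for 56 of the 76 genes. A sense-strand run of a C and at least 8 further bases that are each C or T, beginning between 20 bases before and 40 after the start, was found in 64.3% of these genes and in 15.0% of the 27025 genes with a promoter in the table. The letters CTTCCG, searched on both strands of the 300-base window, were in 69.6% of the RP genes against 18.8% of all genes, and CTTTCC was in 51.8% against 29.3%. TATAAA was in 10.7% against 15.7%, CACGTG in 10.7% against 8.09% and CTTTTC in 28.6% against 24.3%. Shown here are 60 bases, 30 on each side of the start, for genes whose changes are described further on, with the pyrimidine run in capitals. Rpl35 and Rps12 were lower in Acf1∆, Rps10 and Rpl28 higher in Wstf∆, Rpl15 higher in Bptf∆ and Rpl7a higher in Rsf1∆. They lie at chr2:39005102-39005161 (minus strand), chr10:23787180-23787239 (minus), chr17:27635215-27635274 (minus), chr7:4792935-4792994 (plus), chr14:18270957-18271016 (minus) and chr2:26910777-26910836 (plus), in that order.
Rpl35: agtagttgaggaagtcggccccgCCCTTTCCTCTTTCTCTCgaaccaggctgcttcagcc
Rps12: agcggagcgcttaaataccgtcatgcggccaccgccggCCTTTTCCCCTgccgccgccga
Rps10: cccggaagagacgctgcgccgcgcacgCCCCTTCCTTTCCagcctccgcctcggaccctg
Rpl28: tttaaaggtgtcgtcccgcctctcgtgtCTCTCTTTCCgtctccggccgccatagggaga
Rpl15: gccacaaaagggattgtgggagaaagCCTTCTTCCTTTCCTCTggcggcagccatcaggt
Rpl7a: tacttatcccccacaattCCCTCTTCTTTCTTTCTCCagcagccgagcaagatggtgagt
The run was 18 bases long in Rpl35, 19 in Rpl7a and 17 in Rpl15, and among the windows shown it was present in genes that fell as well as in genes that rose. It was not general among the genes described here. Rpl23, Rps13 and Rpsa had runs of 6 bases and Rps2 had one of 7, all short of the criterion. The windows of Rpl41, which fell in Acf1∆, and of Rplp0 and Rps28, which rose in Bptf∆, held no such run, nor one of a C and at least 5 further pyrimidines.

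Measured RP mRNA levels in WT cells were far from even. Per kilobase of the gene width given in the count table, the highest were Rpl4 (1673 ± 243 normalized CPM per kb, SD, n = 11 WT libraries), Rplp1 (1488 ± 296) and Rpl8 (1329 ± 125). RPL4 lines the exit tunnel of the large subunit and RPLP1 is an acidic protein of its stalk. The lowest were Rpl29 (1.21 ± 0.41), Rpl21 (5.28 ± 2.04) and Rpl11 (5.88 ± 1.70). Before scaling by width, 7 genes were at or above 1000 CPM and 21 were under 100 CPM. The 5 highest genes held 32.8% of the summed WT level.

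**Figure D1:**
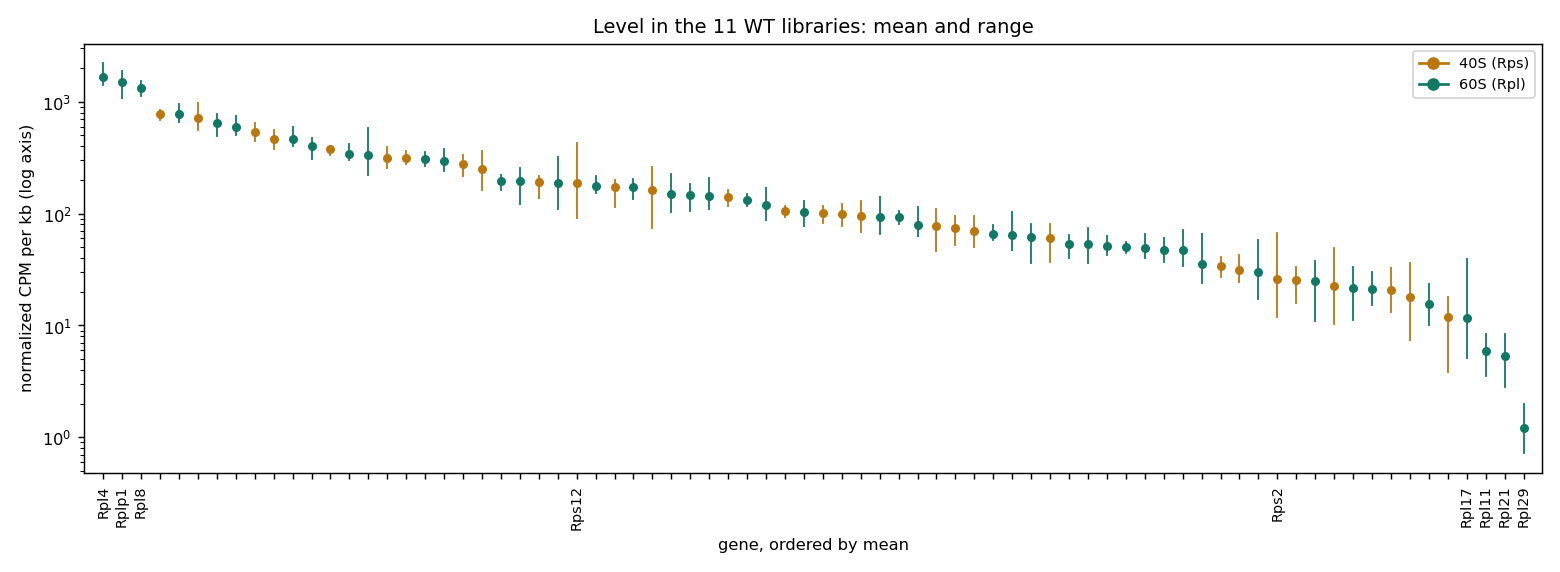
Level of each of the 76 cytosolic RP genes in the 11 WT libraries, in normalized CPM per kilobase of gene width on a log axis, with genes ordered by mean and the 3 highest, 3 lowest and 3 most batch-variable labelled. Points are means, bars run from the lowest to the highest library, and colors mark the subunit. Means run from 1673 for Rpl4 to 1.21 for Rpl29.

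Much of RP mRNA sequence is shared with other transcripts, and how reads with several hits were counted is not given in the sources used here. In the GENCODE M21 transcripts, a median of 48.5% of the 50-base windows of an RP mRNA occurred in no transcript of another gene, against 97.2% for the 78 mitochondrial RP genes. With 100-base windows these medians were 64.7% and 100%. In 18 genes fewer than 20% of 50-base windows were unique. Their median WT level was 50.8 normalized CPM per kb, against 143.8 in the other 58. Across the 76 genes, level per kb and unique share had a Spearman rho of 0.38, a description of genes that share the same libraries. Copies in the genome outside these transcripts were not searched, so levels compared between RP genes are uncertain. In Acf1∆, where 15.1% of all genes were called higher and 16.7% lower, 9 of the 18 least unique RP genes were higher and 3 lower, and 24 and 6 of the other 58.

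The WT libraries of the 5 batches differed in RP mRNA. The test of batch (edgeR quasi-likelihood, Benjamini-Hochberg adjusted p under 0.01, the threshold for all calls here) called 68 of 76 RP genes, beside 73.1% of all 15682 genes tested. Between WT of batches E and A, 46 RP genes differed (60.5%, beside 29.7% of all genes), between E and B 40 (52.6%, beside 21.2%), and between C and B 28 (36.8%, beside 40.1%). Among the pairs of batches, C and B were the only one in which the RP share was below that of all genes. The batch means of an RP gene spanned a median of 1.59-fold, and 18 genes spanned over 2-fold. The widest were Rpl17, Rps2 and Rps12. In WT, Rps12 was at 193 and 207 CPM in batch A, at 184 and 192 in B, at 330.4 and 337 in C, at 429, 352 and 399.5 in D, and at 870.4 and 659 in E. All batch E libraries were thus above all other WT libraries. The same held for Rps2, at 92.3 and 124 CPM in batch E against 21.6 to 46.7 in the other 9, and for Rpl17, at 32.2 and 52.5 against 6.82 to 12.6. Rps3 was among the 8 genes not called, with batch means spanning 1.10-fold. Because batch E carries Acf1∆, these WT levels bear on every comparison made for that line.

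Counts in the 76 genes summed to a small share of each library. How reads with several hits were counted is not given, so the share of RP mRNA itself is uncertain. The counted share was 2.53% to 3.24% of all counts in the 11 WT libraries, with a median of 2.96%. It was 2.71% and 2.68% in Rsf1∆ and 2.77% in both Wstf∆ libraries, beside 2.61% and 2.53% in WT of batch A. Tip5∆ had 2.98% and 3.08%, beside 2.96% and 2.98%, and Bptf∆ had 2.85% and 2.87%, beside 2.75% and 2.68%. Cecr2∆ had 3.04%, 2.90% and 2.95%, beside a WT mean of 3.01% ± 0.13 (SD, n = 3). In batch E the 2 Acf1∆ libraries lay apart, at 3.08% and 3.63%, below and above both WT libraries at 3.24% and 3.12%. The share was above both WT libraries of the batch in both libraries of Rsf1∆, Wstf∆ and Bptf∆, and 2 libraries against 2 cannot reach p = 0.05 in an exact permutation test. The ratio of summed 40S to 60S levels per kb was 0.53 ± 0.01 in Acf1∆ and 0.48 ± 0.01 in WT of batch E (SD, n = 2 each), and from 0.50 to 0.53 in the means of all other groups.

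**Figure D2:**
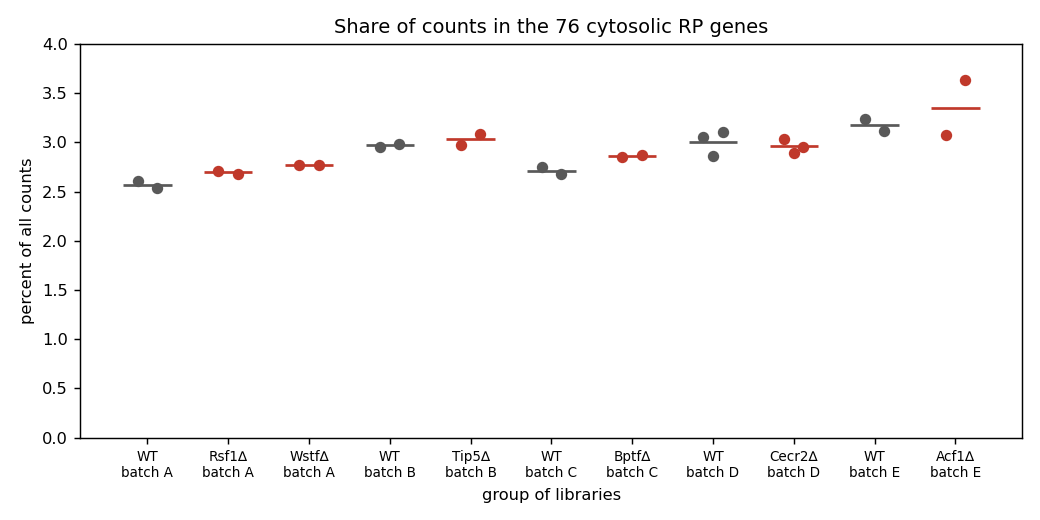
Percent of all counts that fell in the 76 cytosolic RP genes, for each library (points) and the mean of each group (lines), WT in grey and deletion lines in red. All libraries lie between 2.53% and 3.63%, and the Acf1∆ libraries at 3.08% and 3.63% are the widest pair.

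With all libraries in the fit, Acf1∆ was the line in which most RP genes were called, with 33 higher and 9 lower of 76, and a median log2 fold change of 0.26 over the RP genes against −0.03 over all genes tested. Over all genes 15.1% were higher and 16.7% lower in this line. With libraries of the own batch only, Acf1∆ and Wstf∆ had equal counts, 29 higher and 6 lower each (all genes, 8.22% and 8.73% in Acf1∆, 23.1% and 22.5% in Wstf∆). Wstf∆ had 14 higher and 1 lower (all genes, 16.4% and 18.3%) and a median of 0.06. Bptf∆ had 8 higher and 1 lower (all genes, 21.4% and 20.2%) and a median of 0.08. Rsf1∆ had 4 higher and none lower (all genes, 7.45% and 13.1%) and a median of 0.12. In Rsf1∆, edgeR put 1 gene lower at an unadjusted p under 0.05, and DESeq2 called 0 lower. Tip5∆ had 1 higher and 2 lower (all genes, 2.84% and 6.23%) and a median of 0.03. Cecr2∆ had none higher and 3 lower (all genes, 9.52% and 8.83%) and a median of −0.03. There, 5 genes were higher at an unadjusted p under 0.05 and DESeq2 called 0 higher. As shares of the 76 RP genes, the higher calls were 43.4% in Acf1∆ and 18.4% in Wstf∆, above the share of all genes in those lines, and 10.5% or less in the other 4 lines, below it. For Acf1∆ this order of the higher calls held in all 15 alternatives in which shares were compared. For Wstf∆ it turned in 4 of 15 (no batch term and 3 of the 4 fits without 1 library). In Tip5∆ it turned in 7 of 15, in Rsf1∆ in 2 of 15 and in Bptf∆ in 1 of 14. The lower calls were below the share of all genes in each of the 6 lines, 11.8% in Acf1∆ included, but this too turned in 3 of 15 alternatives in Acf1∆, 2 of 15 in Tip5∆ and 1 of 17 in Cecr2∆. In Acf1∆ the RP share of lower calls was 14.5% beside 10.7% of all genes without Acf1∆ replicate 2, 14.5% beside 12.6% with no filter on low counts and 21.1% beside 17.95% with an offset for gene width. With no filter it was 7.89% beside 5.12% in Tip5∆ and 11.8% beside 7.60% in Cecr2∆. With libraries of batch B only, the RP genes of Tip5∆ were lower in 17.1% beside 13.1% and higher in 22.4% beside 11.5%. These differences in shares were not tested. With an absolute log2 fold change over 1 in addition, as in the definition of a differentially expressed gene (DEG), 3 RP genes passed in Acf1∆ (4.45% of all genes), 2 in Wstf∆ (10.4%) and 1 in Bptf∆ (13.8%). None passed in Rsf1∆ (5.91%), Tip5∆ (2.72%) or Cecr2∆ (3.11%). The libraries of a line did not overlap WT of their batch in 53 RP genes in Acf1∆ (63.2% of all genes), 52 in Wstf∆ (76.9%), 52 in Bptf∆ (79.9%), 48 in Rsf1∆ (67.1%), 43 in Tip5∆ (63.3%) and 8 in Cecr2∆ (38.3%). In all, 51 of the 76 genes were called in at least 1 line, 24 of them in Acf1∆ and no other line. No RP gene was called in more than 3 lines. Such counts over lines were not taken for all genes, of which 9.07% (Tip5∆) to 41.6% (Bptf∆) were called per line. Those called in 3 were Rpl28, Rpl37a, Rpl7a and Rps14.

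**Figure D3:**
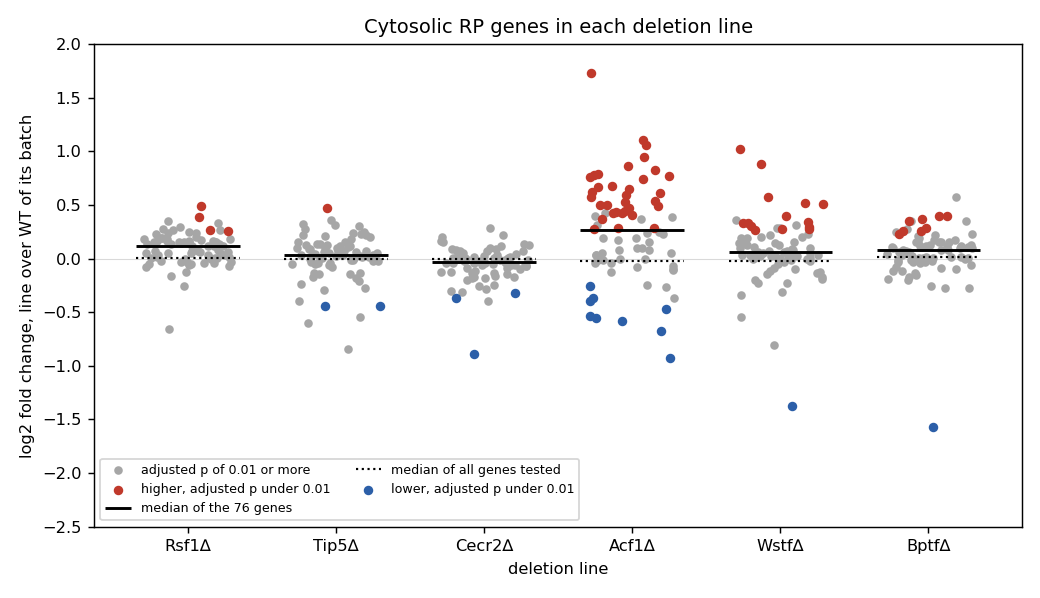
Log2 fold change of each of the 76 cytosolic RP genes in each deletion line over WT of its own batch. Each point is a gene, red if higher and blue if lower at an adjusted p under 0.01, with solid bars for the RP median and dotted bars for the median of all genes tested. Acf1∆ has 33 red and 9 blue points, and its RP median of 0.26 is the highest of the 6 lines.

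In Acf1∆ both subunits took part, with 15 of 30 genes of the 40S and 18 of 46 of the 60S subunit higher (beside 15.1% of all genes), and 2 and 7 lower (beside 16.7%). Rpl30, a 60S protein gene, had the largest change. It was at 37.4 and 32.2 CPM in WT of batch E and at 109 and 122 CPM in Acf1∆, with no overlap, a log2 fold change of 1.73 ± 0.09 (SE) and an adjusted p of 1.52e-13. Both Acf1∆ libraries were also above all 9 WT libraries of the other batches, which lay between 49.7 and 96.8 CPM. Rps13, of the 40S subunit, was at 50.5 and 42.6 CPM in WT and at 86.6 and 114 CPM in Acf1∆ (1.11 ± 0.11, adjusted p 7.41e-09). Its mean in Acf1∆ was above the other WT libraries, whose highest was 90.4 CPM. With no batch term, against all 11 WT libraries, both calls were lost, with Rpl30 at 0.89 (adjusted p 0.029) and Rps13 at 0.54 (0.11). They held in the other alternatives run. Rpl29 was higher too, but at a very low level, from 0.96 and 0.81 CPM to 1.72 and 1.98 CPM (1.06 ± 0.31, adjusted p 0.0074). Its call was lost in each fit without 1 library (adjusted p from 0.013 without Acf1∆ replicate 1 to 0.057 without Acf1∆ replicate 2), by DESeq2 (0.015), and with the own batch only, a replicate block (0.013 in both), the width offset or no batch term.

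Most genes that fell in Acf1∆ stood high in WT of batch E. Rps12, a 40S protein gene, was at 870.4 and 659 CPM in WT and at 379 and 426 CPM in Acf1∆ (−0.93 ± 0.12, adjusted p 8.46e-07). The libraries did not overlap, but the mean in Acf1∆, 402 CPM, was inside the range of the other 9 WT libraries. Rpl41, which encodes a very small basic protein, was at 333 and 299 CPM in WT and at 177 and 218 CPM in Acf1∆ (−0.68 ± 0.11, adjusted p 2.97e-05). Rpl35 was at 256 and 227 CPM in WT and at 141 and 182 CPM in Acf1∆ (−0.58 ± 0.09, adjusted p 1.88e-05). Rpl23, whose protein can bind MDM2, was at 401 and 312 CPM in WT and at 212 and 274 CPM in Acf1∆ (−0.55 ± 0.12, adjusted p 0.00043). Its call was lost without WT replicate 1 of batch E (adjusted p 0.032) and without Acf1∆ replicate 1 (0.020). With no batch term the calls of these 4 genes were lost, with Rps12 at 0.09, Rpl41 at −0.16, Rpl35 at −0.13 and Rpl23 at −0.13. The other genes that fell were Rps26, Rplp2, Rpl35a, Rpl5 and Rpl4.

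**Figure D4:**
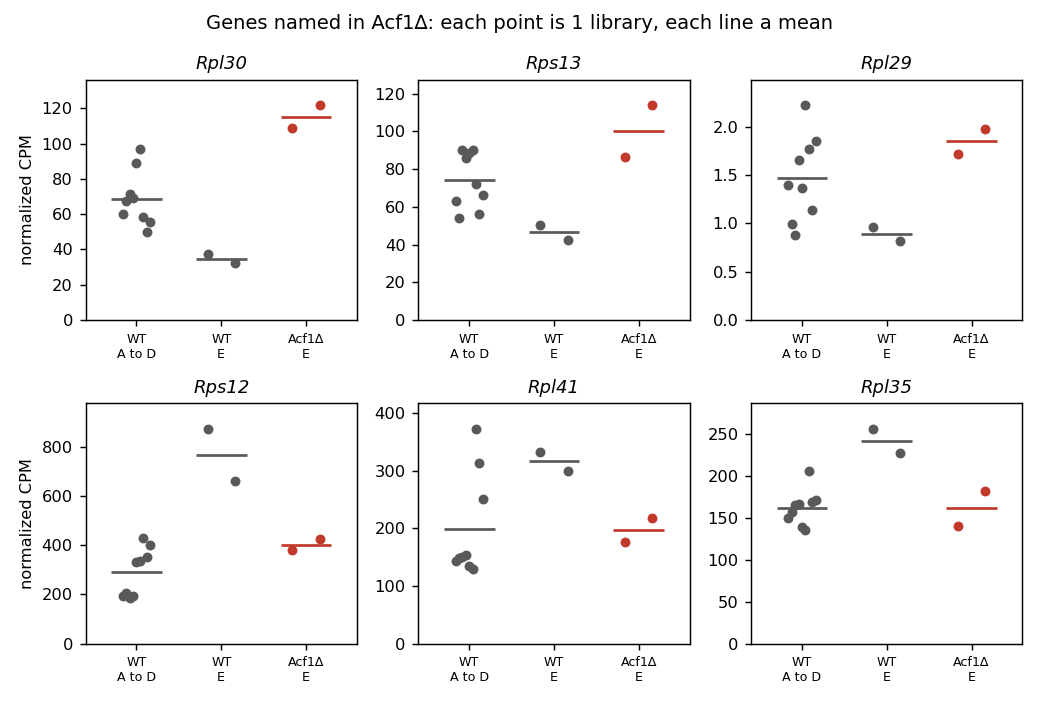
Normalized CPM of 3 RP genes that were higher (top) and 3 that were lower (bottom) in Acf1∆, in the WT libraries of batches A to D, in WT of batch E and in Acf1∆. Each point is 1 library, lines are means, and each vertical axis starts at 0. Rpl30 in Acf1∆ lies above all WT libraries, while for Rps12 it is WT of batch E, at 870.4 and 659 CPM, that lies above all others.

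The Acf1∆ calls were set beside WT of the other batches. Of the 33 genes called higher, the mean of Acf1∆ was above all 9 other WT libraries in 20 and inside their range in 13, and WT of batch E was below all of them in 11. Of the 9 called lower, Acf1∆ was inside that range in 7, and WT of batch E was above it in 7. These range counts were not taken over all genes called in Acf1∆, so they describe the RP genes only. With no batch term, against all 11 WT libraries, 6 genes were higher (7.89%, beside 0.746% of all genes). The Acf1∆ libraries also differed from each other. Replicate 2 was above replicate 1 in 74 of the 76 genes, by a median log2 difference of 0.25. Among other genes, with a minimum log2 CPM of 5, the same difference was 0.25 in the 88 of up to 1000 bases in width. It was −0.14 in the 2973 over 5000 bases. Without Acf1∆ replicate 1 the counts were 38 higher (beside 13.7% of all genes) and 3 lower (3.95%, beside 16.2%). Without Acf1∆ replicate 2 they were 23 higher (30.3%, beside 11.5%) and 11 lower (14.5%, beside 10.7%), so that the lower calls lay above the share of all genes. Without WT replicate 1 they were 26 (34.2%, beside 10.1%) and 3 (3.95%, beside 11.04%), and without WT replicate 2 they were 28 (36.8%, beside 12.9%) and 10 (13.2%, beside 14.8%). Allowing for a trend of the counts with gene width, an alternative chosen after seeing the data, gave 26 higher (34.2%, beside 13.7%) and 16 lower (21.1%, beside 17.95%). The part of gene width in the calls was not otherwise tested.

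Rps27a had the largest fall of any RP gene, in Bptf∆ and in Wstf∆. It encodes ubiquitin fused to a 40S protein and is 1 of the genes that supply ubiquitin. In batch C, WT had 34.3 and 52.1 CPM and Bptf∆ had 14.7 and 14.3 CPM (−1.57 ± 0.21, adjusted p 5.6e-07). In batch A it was at 24.1 and 31.5 CPM in WT and at 11.1 and 10.3 CPM in Wstf∆ (−1.37 ± 0.23, adjusted p 2.52e-05). The means of both lines were below all 11 WT libraries, of which the lowest was at 20.2 CPM. In Rsf1∆ Rps27a was at 15.6 and 19.5 CPM, −0.66 ± 0.20, with an adjusted p of 0.013 that missed the threshold. It was at 0.32 in Tip5∆, 0.08 in Cecr2∆ and −0.37 in Acf1∆, none of them called. Both calls held in all alternatives run.

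In Wstf∆ the 14 higher genes were led by Rps2 and Rps10, both of the 40S subunit. Rps2, a protein of the mRNA entry side, was at 25.4 and 21.6 CPM in WT of batch A and at 43.6 and 52.3 CPM in Wstf∆ (1.03 ± 0.15, adjusted p 3.08e-06). Rps10 was at 149 and 127 CPM in WT and at 250.5 and 257 CPM in Wstf∆ (0.88 ± 0.11, adjusted p 1.2e-07). WT of batch A was below all other WT libraries for both, and the Wstf∆ means lay within the range of WT of the other batches. Rpl28 was at 87.0 and 79.8 CPM in WT and at 125 and 123 CPM in Wstf∆ (0.57 ± 0.07, adjusted p 1.25e-07), above all WT libraries. Rplp2, an acidic stalk gene, was at 484 and 467.5 CPM in WT and at 688 and 678 CPM in Wstf∆ (0.52 ± 0.12, adjusted p 0.00060). Of the 14 higher genes the Wstf∆ mean was within the range of the other WT libraries in 12, a count not taken over all genes. With no batch term 2 RP genes were lower and none of the 14 rises was called. Without WT replicate 1 of batch A 11 genes were higher (14.5%, beside 12.6% of all genes), and without WT replicate 2 it was 5 (6.58%, beside 12.3%). It was 8 without Wstf∆ replicate 1 (10.5%, beside 11.7%) and 8 without replicate 2 (10.5%, beside 11.9%). In 3 of these 4 fits the share of higher RP genes was thus below that of all genes. With libraries of batch A without Rsf1∆ the count was 29 (38.2%, beside 23.1%).

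Among the called genes of Bptf∆ the largest rises were those of Rplp0, Rpl15, Rps28 and Rps14. Rpl11 had a larger fold change (0.57 ± 0.19) with an adjusted p of 0.015 that missed the threshold. Rplp0, the base of the acidic stalk and often used as a reference gene in PCR, rose from 1208 and 1182 CPM in batch C WT to 1573 and 1577 CPM in Bptf∆ (0.40 ± 0.07, adjusted p 4.07e-05). The highest of the other WT libraries, in batch D, was also at 1573 CPM. Rpl15 was at 154 and 160 CPM in WT and at 214 and 199.5 CPM in Bptf∆ (0.40 ± 0.09, adjusted p 0.00038). Rps14 was at 749 and 729 CPM in WT and at 923 and 958 CPM in Bptf∆ (0.35 ± 0.09, adjusted p 0.0012), and Rps28 was at 0.37 ± 0.10 (adjusted p 0.0027). The Rps28 call was lost in 5 alternatives, without Bptf∆ replicate 2 (adjusted p 0.040), WT replicate 1 (0.022) or WT replicate 2 (0.016) of batch C, with a replicate block (0.0102) and with no batch term, where it was at 0.09. The Rps14 call was lost in 3, without Bptf∆ replicate 2 (0.017) or WT replicate 2 (0.016) and with no batch term (0.016). The Rpl15 call was lost without Bptf∆ replicate 1 (0.0104) and that of Rplp0 with no batch term (0.027). The count of higher genes fell to 3 (3.95%) without Bptf∆ replicate 2 (beside 16.4% of all genes) or WT replicate 2 of batch C (16.8%), to 5 (6.58%) without WT replicate 1 (16.9%) and to 6 (7.89%) without Bptf∆ replicate 1 (16.7%).

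Rpl7a and Rpl37a, of the 60S subunit, were higher in Rsf1∆ and lower in Tip5∆. Rpl7a, a host of small nucleolar RNAs, was at 71.9 and 68.0 CPM in WT of batch A and at 95.2 and 101 CPM in Rsf1∆ (0.49 ± 0.11, adjusted p 0.0010). In batch B it was at 80.1 and 85.1 CPM in WT and at 55.5 and 66.0 CPM in Tip5∆ (−0.44 ± 0.11, adjusted p 0.0060). Rpl37a was at 95.1 and 88.5 CPM in WT of batch A and at 108 and 131 CPM in Rsf1∆ (0.38 ± 0.09, adjusted p 0.0018). It was at 99.3 and 104 CPM in WT of batch B and at 73.2 and 76.5 CPM in Tip5∆ (−0.44 ± 0.09, adjusted p 0.0012). Rpl28 (0.27 ± 0.07) and Rpl10a (0.26 ± 0.07) were the other genes higher in Rsf1∆. The Rpl10a call was lost in 8 alternatives, each fit without 1 library (adjusted p 0.024 to 0.083), library size only (0.016), a replicate block (0.012), the width offset (0.023) and no batch term, where it was at −0.09. The Rpl28 call was lost in 5, without WT replicate 2 of batch A (0.074), Rsf1∆ replicate 1 (0.013) or replicate 2 (0.032), with the width offset (0.011) and with no batch term. The calls of Rpl7a and Rpl37a were also lost with no batch term. Fewer RP genes, or none, were called higher in Rsf1∆ in each fit without 1 library, and fewer of all genes were called higher too. Each of these fits left 1 library in a group. Rpsa, for a 40S protein that shares its name with a laminin receptor, was the single gene higher in Tip5∆. It was at 367 and 361 CPM in WT of batch B and at 507 and 499 CPM in Tip5∆ (0.47 ± 0.07, adjusted p 3.63e-05). Both libraries were above all 11 WT libraries, and the call held in all alternatives run. The lower calls of Tip5∆ were lost without Tip5∆ replicate 1 and without WT replicate 2 of batch B, and were fewer without WT replicate 1. In these fits fewer of all genes were called lower too. The Rpl7a call was also lost without batch C (adjusted p 0.017), and the lower calls of Rpl7a and Rpl37a were lost with no batch term.

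In the libraries labelled Cecr2∆ the 3 called genes were lower. Rpl13 was at 63.0, 55.7 and 70.2 CPM in WT of batch D and at 50.3, 51.4 and 45.1 CPM in Cecr2∆ (−0.37 ± 0.08, adjusted p 0.0017). Its call was lost without WT replicate 3 of batch D (0.023), without Cecr2∆ replicate 3 (0.019) and with no batch term (0.13). Rpl29 was near 1 CPM throughout, at 1.77, 1.14 and 1.85 CPM in WT and at 0.82, 0.96 and 0.78 CPM in Cecr2∆ (−0.89 ± 0.25, adjusted p 0.0076). The Rpl29 call was lost without WT replicate 1 (adjusted p 0.037) or 3 (0.042) of batch D, without each Cecr2∆ replicate (0.013 to 0.037), by DESeq2 (0.014), and with a replicate block (0.017), the own batch only (0.020) or no batch term (0.096). Rpl41 was the third, with overlapping libraries. The number of lower genes was 0 without Cecr2∆ replicate 3 (beside 6.31% of all genes). It was 1 without replicate 1 (7.31%), replicate 2 (6.86%) or WT replicate 1 (7.65%), and 6 without WT replicate 2 (8.97%). The RP genes of WT replicate 2 were at a median log2 difference of −0.12 from the WT mean of the batch. Without WT replicate 3, 2 RP genes were lower (7.12%) and 1 was higher (7.55%).

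**Figure D5:**
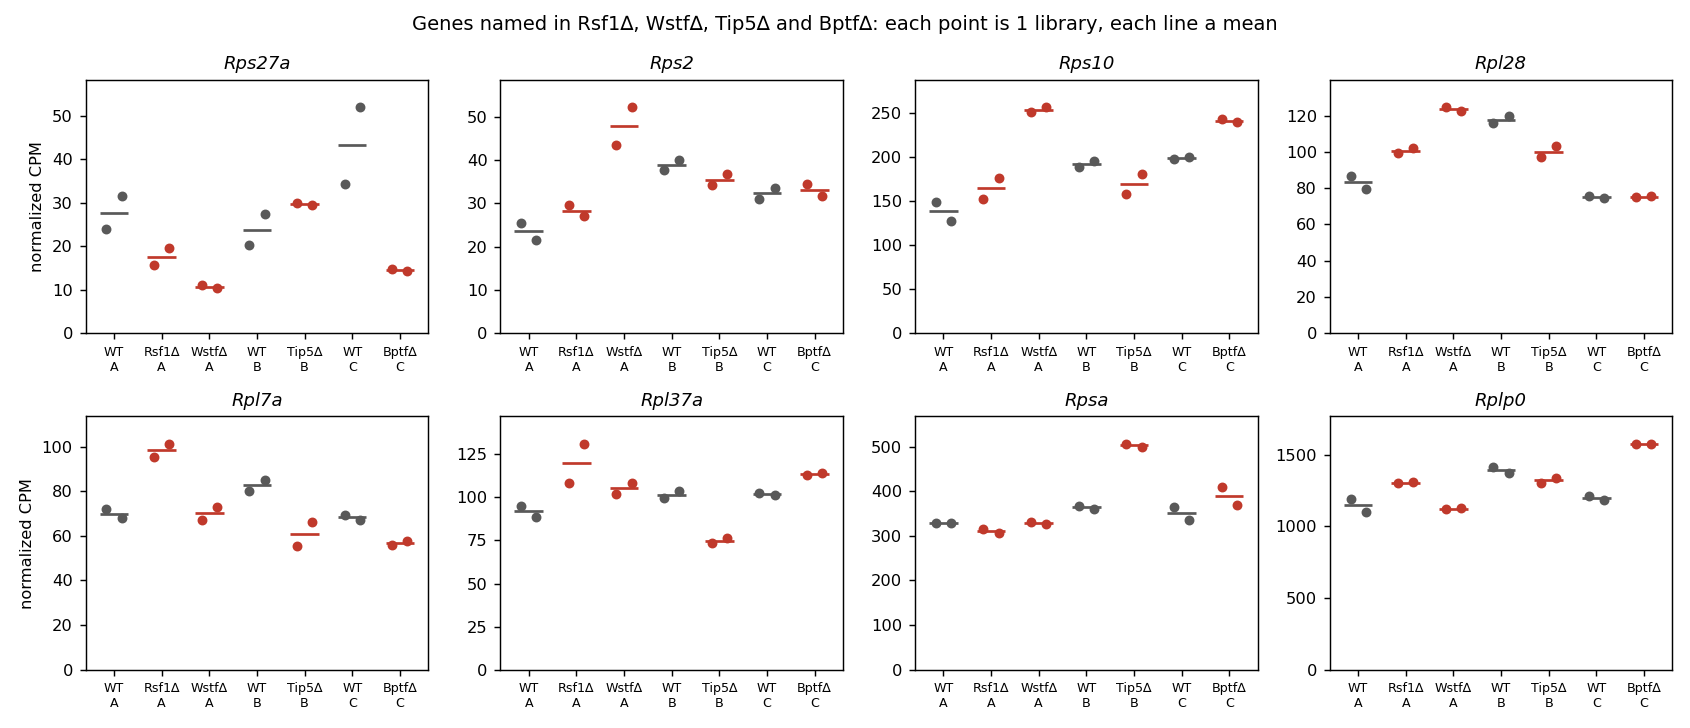
Normalized CPM of 8 RP genes named in Rsf1∆, Wstf∆, Tip5∆ or Bptf∆, in every library of batches A, B and C. Each point is 1 library, lines are means, WT is grey and deletion lines are red, and each vertical axis starts at 0. Rps27a is at 10.3 to 14.7 CPM in Wstf∆ and Bptf∆ against 20.2 CPM or more in WT, and Rpsa in Tip5∆ is near 500 CPM.

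Wstf∆ and Rsf1∆ shared batch A and could be compared directly, with no WT library between them. There, 6 RP genes were higher and 2 lower in Wstf∆ (all genes, 17.5% and 15.8%). The higher genes were Rps2 (0.76 ± 0.15), Rps10 (0.63 ± 0.10), Rps21, Rps14, Rpl27 and Rpl28, and the lower were Rpl7a (−0.49 ± 0.11) and Rpl24 (−0.27 ± 0.08). Fitted on batch A alone, 16 were higher (21.1%, beside 22.8% of all genes) and 13 lower (17.1%, beside 19.5%). For the other 14 pairs of lines, the difference of their effects was called in 1 to 34 RP genes. Against Rsf1∆ these were 4 in Tip5∆ (11.7% of all genes), 4 in Cecr2∆ (16.1%) and 17 in Acf1∆ (14.8%), and 8 in Wstf∆ (33.3%) by the direct comparison. Against Tip5∆ they were 11 in Wstf∆ (23.6%) and 5 in Bptf∆ (30.4%), and against Cecr2∆ 12 in Wstf∆ (23.4%) and 9 in Bptf∆ (34.2%). Acf1∆ differed from Wstf∆ in 26 (34.9%) and from Bptf∆ in 28 (38.6%), and Bptf∆ from Wstf∆ in 5 (21.2%). The most were found for Acf1∆ against Cecr2∆ (31 higher and 3 lower in Acf1∆, beside 15.8% and 16.1% of all genes, 31.9% in all) and against Tip5∆ (26 and 8, beside 12.8% and 11.6%, 24.4% in all). The fewest, 1 gene each, were found for Bptf∆ against Rsf1∆ (30.7% of all genes) and Cecr2∆ against Tip5∆ (8.37%).

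Rps3a1, Rack1 and Fau, whose proteins are also part of the 40S subunit, lie outside the symbol rule. Rps3a1 (0.79 ± 0.11) and Rack1 (0.41 ± 0.06) were higher in Acf1∆ and called in no other line, and Fau was called in no line. The mRNA of RACK1, a scaffold protein on the 40S head, was at 2103 ± 182 CPM (SD, n = 11 WT libraries). Among 9 paralogues, 5 were higher (55.6%, beside 15.1% of all genes) and 1 lower (11.1%, beside 16.7%) in Acf1∆. Rpl22l1, the paralogue of Rpl22, was higher in Acf1∆ (0.83 ± 0.13) and in Bptf∆ (0.62 ± 0.12). Rpl10l, a copy of Rpl10 known from the testis, was lower in Tip5∆ (−1.18 ± 0.09, from 36.7 to 16.2 CPM) and Acf1∆ (−0.56 ± 0.09) and higher in Rsf1∆ (0.46 ± 0.08). Rpl39l was higher in Rsf1∆, Cecr2∆ and Acf1∆ and lower in Tip5∆ (−0.50 ± 0.10). Rpl7l1, which acts in 60S assembly, was higher in Acf1∆ (0.40 ± 0.06) and slightly lower in Bptf∆ (−0.19 ± 0.06). Rpl36al was higher in Acf1∆ (0.67 ± 0.11) and lower in Bptf∆ (−0.41 ± 0.11). Rps27l, a p53 target, was lower in Tip5∆ (−0.37 ± 0.08). Rps27rt was higher in Acf1∆ (0.95 ± 0.26), Rps4l in Rsf1∆ (0.52 ± 0.09) and Wstf∆ (0.54 ± 0.09), and Rpl3l, at about 1 CPM, in Bptf∆ (1.26 ± 0.36). Of 7 counted RP pseudogenes, Rpl14-ps1 was at 363 ± 89.4 CPM (SD, n = 11 WT libraries), in the range of many functional RP genes. Reads of such copies cannot be told from those of their parent genes with certainty.

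The mitochondrial RP genes, whose mRNAs had a high median of unique windows, were set beside them. Some were far lower, among the named ones Mrpl23 (23.6% of 50-base windows) and Mrpl19 (59.7%). In Acf1∆, 31 of 78 were higher (39.7%, beside 15.1% of all genes) and 4 lower (5.13%, beside 16.7%), with a median of 0.20. Mrps14 (0.69 ± 0.08) and Mrpl36 (0.65 ± 0.09) rose most, and Mrpl32 (−0.53 ± 0.11) and Mrpl23 (−0.45 ± 0.11) fell most. In Bptf∆, 7 were higher (8.97%, beside 21.4%) and 29 lower (37.2%, beside 20.2%), with Mrpl35 (−1.36 ± 0.09) and Mrpl19 (−1.13 ± 0.07) lowest. Mrpl35 was also lower in Rsf1∆ (−0.73 ± 0.09) and higher in Acf1∆ and Cecr2∆. In Wstf∆ 7 were higher (8.97%, beside 16.4%) and 11 lower (14.1%, beside 18.3%). In Rsf1∆ 8 were higher (10.3%, beside 7.45%) and 1 lower (1.28%, beside 13.1%). In Cecr2∆ 3 were higher (3.85%, beside 9.52%) and 2 lower (2.56%, beside 8.83%), and in Tip5∆ 3 were lower (3.85%, beside 6.23%). Among the called genes Mrpl52 had the largest rise in Wstf∆ (0.94 ± 0.12) and in Rsf1∆ (0.43 ± 0.12), where Mrps36, not called, was at 0.45 ± 0.29.

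Of 45 ribosome assembly factors and RP chaperones, which build the ribosome, 30 were lower in Bptf∆ (66.7%, beside 20.2% of all genes), with a median of −0.35. In Wstf∆, 22 were lower (48.9%, beside 18.3%) and 1 higher (2.22%, beside 16.4%), with a median of −0.23. Utp14a, which acts in 40S processing, was lower in Bptf∆ (−0.80 ± 0.08) and Wstf∆ (−0.80 ± 0.08), and Mdn1, the giant ATPase of 60S maturation, was lower in Bptf∆ (−0.78 ± 0.18). Over the same lines the RP medians were 0.08 and 0.06, and the difference between these groups was not tested. In Acf1∆, 20 factors were higher (44.4%, beside 15.1%) and 3 lower (6.67%, beside 16.7%), led by Eif6 (0.86 ± 0.07), which keeps free 60S subunits from joining, and Grwd1 (0.76 ± 0.06). Ncl (nucleolin) fell in Acf1∆ (−0.30 ± 0.08). In Cecr2∆, 12 were lower (26.7%, beside 8.83%), with Rrp9 at −0.29 ± 0.05. Rsf1∆ had 7 higher (15.6%, beside 7.45%), among them Eif6 (0.36 ± 0.07), and Tip5∆ had 1, Fbl (0.28 ± 0.06).

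Regulators and other genes of the pathway are given by line, and differences between lines were not tested for them. Of 18 regulators, 3 were higher and 8 lower in Bptf∆ (beside 21.4% and 20.2% of all genes). In Wstf∆ 2 and 4 were (16.4% and 18.3%), and in Acf1∆ 3 and 2 (15.1% and 16.7%). In Rsf1∆ 3 and 2 were (7.45% and 13.1%), in Cecr2∆ 2 and 2 (9.52% and 8.83%) and in Tip5∆ 0 and 1 (2.84% and 6.23%). Myc and Mycn, which drive ribosome production, fell in Bptf∆ (−1.63 ± 0.08 and −1.68 ± 0.07) and Wstf∆ (−0.53 ± 0.07 and −0.85 ± 0.07). In Acf1∆, Myc was higher (0.99 ± 0.07), as it was in Rsf1∆ (0.34 ± 0.07), where Mycn was lower (−0.30 ± 0.07). In Cecr2∆ Mycn was higher (0.44 ± 0.05). Akt1, upstream of mTOR, was lower in all lines except Acf1∆, from −0.36 ± 0.06 in Cecr2∆ to −0.93 ± 0.08 in Rsf1∆. Cnbp, a zinc finger protein that binds TOP mRNAs, was higher in Acf1∆ (0.62 ± 0.07) and lower in Bptf∆ (−1.04 ± 0.07). Of 18 translation factors and related genes with TOP mRNAs, 5 were higher (27.8%, beside 15.1% of all genes) and 4 lower (22.2%, beside 16.7%) in Acf1∆. In Wstf∆ 3 were higher (16.7%, beside 16.4%) and 5 lower (27.8%, beside 18.3%), and in Bptf∆ 2 were higher (11.1%, beside 21.4%) and 4 lower (22.2%, beside 20.2%). In Cecr2∆ 2 were lower (11.1%, beside 8.83%), and 1 was higher (5.56%) in each of Rsf1∆ (beside 7.45%) and Tip5∆ (2.84%). The differences in these shares were not tested. Pabpc1, the cytoplasmic poly(A)-binding protein, fell in Acf1∆ (−0.49 ± 0.07), and Eif4b fell in Acf1∆ (−0.38 ± 0.05) but rose in Wstf∆ (0.51 ± 0.05) and Bptf∆ (0.29 ± 0.05). Of 8 genes of RP surveillance and the p53 response, 7 were higher (87.5%, beside 21.4% of all genes) and 1 lower (12.5%, beside 20.2%) in Bptf∆, with Cdkn1a at 0.87 ± 0.10 and Mdm2 at 0.49 ± 0.07. In Acf1∆, 3 of the 8 were lower (37.5%, beside 16.7%), with Ccng1 at −0.57 ± 0.07, and in Rsf1∆ 3 were lower (37.5%, beside 13.1%) and 1 higher (12.5%, beside 7.45%). Trp53 was higher in Rsf1∆ (0.32 ± 0.09), Wstf∆ (0.30 ± 0.09) and Bptf∆ (0.37 ± 0.09). Cdkn1a was lower in Rsf1∆, Tip5∆ (−0.48 ± 0.07) and Acf1∆ and higher in Cecr2∆ (0.34 ± 0.06), and Zmat3 was higher in Wstf∆ (0.83 ± 0.07) and Cecr2∆ and lower in Bptf∆ (−0.27 ± 0.07). Of 11 small nucleolar RNA host genes, 7 were lower in Wstf∆ (63.6%, beside 18.3% of all genes), with Snhg5 at −0.78 ± 0.12 and Taf1d at −0.75 ± 0.10, while Snhg8 was higher (0.77 ± 0.14). In Bptf∆ 4 were lower (36.4%, beside 20.2%). In Cecr2∆ all 11 were below 0 and 2 of them, Snhg12 (−0.35 ± 0.08) and Taf1d (−0.27 ± 0.08), were called lower (18.2%, beside 8.83%). In Acf1∆ 3 were higher (27.3%, beside 15.1%), with Snhg12 at 0.87 ± 0.11. The markers of primitive endoderm were also lower in Bptf∆ and Wstf∆, with medians of −3.77 and −1.60, and their part in these changes was not tested.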

How the data were processed

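Per the submitters' processing notes, which also name HISAT2 and mm10, RNA-seq libraries were demultiplexed with bcl2fastq 2.17. For RNA-seq samples run on the NovaSeq, the study names a later version of bcl2fastq. By the study's methods, reads were aligned to mm10 by the authors with QuasR. The deposited values are raw counts per gene of the UCSC knownGene annotation, with a gene width. The labels and the methods name different TruSeq kits, and strand use and handling of reads with several hits are not given in the sources used here. From these counts, genes passing filterByExpr by genotype (15682, including all 76 RP genes) were fitted in edgeR 4.0.16 (R 4.3.3) with TMM factors and the model ~batch + genotype over 24 libraries, using the legacy quasi-likelihood F-test. Calls needed a Benjamini-Hochberg adjusted p under 0.01 over all genes tested. The SE was taken as the absolute log2 fold change over the root of its F statistic. Normalized CPM are counts scaled by the TMM-adjusted library size. Tested on simulated data for Acf1∆, the fit recovered 93.9% of 198 genes changed by 2 on the log2 scale, 69.3% of 192 changed by 1 and 56.3% of 197 changed by 0.5, among 15285, 15303 and 15291 genes, with at most 3 false calls. The simulated libraries had no batch differences, and each gene had the same spread in all groups. In the data 73.1% of all genes differed between WT batches, so the rate of false calls there is not known from this simulation. Libraries are separate samples by their labels, and where they were not separate cultures the p-values measure technical spread only. Named are, per line, the up to 4 largest rises and falls among called genes whose libraries did not overlap those of WT, the 3 highest, 3 lowest and 3 most batch-variable RP genes, and genes of fixed lists. Of most other lists at most 2 rises and 2 falls per line were eligible. Other RP genes, and list genes in lines where the rule did not pick them, were named after their values were seen. Some genes that met the rule are not reported here. The members and lists were chosen with earlier results of these data known. Alternatives were other scaling, filters, DESeq2 1.42.0, fewer samples, a replicate block and leaving out each library.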

Additional observations from a re-analysis of the deposited data

Results flagged for a closer look

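The effects of 2 deletion lines on the RP genes differed by the test of the difference itself (edgeR quasi-likelihood test, adjusted p under 0.01) in at least 1 RP gene in all 15 pairs of lines. The share of the RP genes was above that of all genes, given in brackets, only for Acf1∆ against Rsf1∆, Tip5∆ and Cecr2∆, where 17 (14.8%), 34 (24.4%) and 34 (31.9%) of 76 were called. It was below it in the other 12 pairs. Against Rsf1∆ these were Tip5∆ with 4 (11.7%), Cecr2∆ with 4 (16.1%), Wstf∆ with 8 (33.3%) and Bptf∆ with 1 (30.7%). Against Tip5∆ they were Cecr2∆ with 1 (8.37%), Wstf∆ with 11 (23.6%) and Bptf∆ with 5 (30.4%), and against Cecr2∆ they were Wstf∆ with 12 (23.4%) and Bptf∆ with 9 (34.2%). Wstf∆ against Acf1∆ gave 26 (34.9%), Bptf∆ against Acf1∆ 28 (38.6%), and Bptf∆ against Wstf∆ 5 (21.2%). Except for Wstf∆ against Rsf1∆, lines and batches cannot be told apart in these pairs beyond the subtraction of WT of each batch.

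Called in opposite directions in a pair of lines were 5 RP genes, chosen for that, so their differences are a description. Rpl13 differed by 1.22 ± 0.13 on the log2 scale (SE) between Acf1∆ and Cecr2∆, and Rpl29 by 1.95 ± 0.40. Rpl37a differed by 0.82 ± 0.13 between Rsf1∆ and Tip5∆ and by 1.09 ± 0.13 between Acf1∆ and Tip5∆. Rpl7a differed by 0.93 ± 0.16 between Rsf1∆ and Tip5∆ and by 0.98 ± 0.16 between Acf1∆ and Tip5∆. Rplp2 differed by 0.99 ± 0.16 between Wstf∆ and Acf1∆.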

How the results depend on the processing

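Counts of RP genes called higher and lower are given in the order Acf1∆, Wstf∆, Bptf∆, Rsf1∆, Tip5∆, Cecr2∆. They were 33 and 9, 14 and 1, 8 and 1, 4 and 0, 1 and 2, and 0 and 3 as reported, beside 15.1% and 16.7%, 16.4% and 18.3%, 21.4% and 20.2%, 7.45% and 13.1%, 2.84% and 6.23%, and 9.52% and 8.83% of all genes. With no filter they were 43 and 11, 21 and 7, 15 and 4, 10 and 1, 12 and 6, and 3 and 9, beside 12.9% and 12.6%, 13.1% and 14.6%, 16.7% and 15.8%, 6.65% and 10.4%, 3.61% and 5.12%, and 8.12% and 7.60% of all genes. With libraries of the own batch only they were 29 and 6, 29 and 6, 18 and 10, 9 and 1, 17 and 13, and 1 and 1, beside 8.22% and 8.73%, 23.1% and 22.5%, 27.5% and 28%, 10.8% and 15.8%, 11.5% and 13.1%, and 6.91% and 6.69%. With no batch term they were 6 and 0, 0 and 2, 4 and 1, 0 and 0, 1 and 0, and 0 and 0, beside 0.746% and 1.47%, 4.09% and 3.55%, 14.3% and 17.04%, 0.548% and 1.06%, 0.555% and 1.21%, and 2.69% and 4.91%. With a log2 fold change over 1 also required they were 3 and 0, 1 and 1, 0 and 1, and 0 in both directions in the other 3 lines. Of all genes, both directions together, 4.45%, 10.4%, 13.8%, 5.91%, 2.72% and 3.11% passed. With an offset for gene width, chosen after seeing the data, they were 26 and 16, 13 and 6, 6 and 2, 2 and 1, 3 and 2, and 4 and 2, beside 13.7% and 17.95%, 16.4% and 20.5%, 19.8% and 23.2%, 7.42% and 14.6%, 3.25% and 6.86%, and 9.02% and 10.5%. DESeq2 gave 31 and 9, 16 and 1, 8 and 1, 6 and 0, 2 and 2, and 0 and 1, beside 14.9% and 16.1%, 16.8% and 18.1%, 20.1% and 20.1%, 8.34% and 11.9%, 3.78% and 6.01%, and 8.82% and 9.51%. Leaving out 1 library at a time gave 23 to 38 and 3 to 11, 5 to 11 and 1, 3 to 6 and 1, 0 to 3 and 0 to 1, 1 and 0 to 2, and 0 to 1 and 0 to 6. The shares of all genes called moved too in these fits, as given in part above, so the ranges are not to be read alone. Without batch C, 1 RP gene was lower in Tip5∆ (beside 5.38% of all genes). The replicate numbers did not pair the samples, with correlations of same-numbered libraries from −0.07 to 0.05. With a replicate block 34 were higher and 7 lower in Acf1∆ (beside 13.2% and 14.5% of all genes), and 1 was lower in Cecr2∆ (7.20%). In that fit 6 were higher and 1 lower in Wstf∆ against Rsf1∆ (15.7% and 13.9%). Batch A alone gave 16 and 13 there (22.8% and 19.5%). Taking both genes that failed the filter and genes without a poly(A) tail out of the total moved the RP share. It moved by over 1 SD in Bptf∆ (2.88%) and Wstf∆ (2.77%). In Wstf∆ that SD was only 0.00024, and RNAs without a poly(A) tail summed to 16.5 to 17.1 CPM. With no batch term, 3 named changes turned direction, Rpl10a in Rsf1∆ (log2 fold change −0.088), Rps12 in Acf1∆ (0.091) and Rplp2 in Wstf∆ (−0.010). Of 404 alternative values for 27 named changes, 333 kept direction and call, and 68 kept direction only. The causes were not tested. Low counts limit Rpl29, at 22 to 62 counts per WT library.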
